A study of Mus musculus with 8 samples.

Results

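The Zfp genes of the mouse are named for zinc finger proteins, and they were set here against the binding positions of ZGLP1, which carries zinc fingers of the GATA type and which the series title calls a determinant of oogenic fate. Members were the protein-coding genes of the RefSeq annotation of GRCm38 (mm10) whose symbol is Zfp followed by a digit, Zfp42 left out, which gave 396 of 21900 protein-coding genes. Each was read with the peak summits within 10 kb of its start or end. Summits are single-base positions where the authors' peak caller placed the top of a peak, and the deposited list held 32927 of them.

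Every library came from cells with a V5-tagged Zglp1 that doxycycline (Dox) turns on, and an antibody to V5 pulled the chromatin down. Primordial germ cell-like cells (PGCLCs, derived in vitro from embryonic stem cells, or ESCs) gave 4 ChIP libraries, on culture day 7 or 8 (c7 and c8), with Dox alone or with Dox and retinoic acid (RA) from day 3, and 2 inputs from c8. ESCs treated with Dox and RA for 24 h gave 1 ChIP library and 1 input. Cells were sorted for mCherry, and the PGCLCs also for the SC reporter. Each of the 8 groups had 1 library, no group lacked Dox, and no source used here says whether the cells came from 1 clone. The list of summits is 1 list for the whole series, with no library, height or score beside a summit. Comparisons of c7 with c8, of Dox with Dox and RA and of PGCLCs with ESCs were therefore not made, the depth behind a summit is unknown, and a missing summit can mean no binding or a peak under the authors' cutoff.

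Most Zfp genes encode proteins with arrays of Cys2-His2 fingers, each of which contacts a few bases of DNA. Many also carry a KRAB box, which recruits the corepressor TRIM28 (KAP1) and through it histone and DNA methylation, and this class is known for silencing retroelements and for keeping imprints in early embryos and stem cells. KRAB zinc finger genes multiplied by tandem duplication and stand in clusters of related copies, so neighbouring members share sequence and are not independent. A smaller number of symbols belong to other proteins, such as the CCCH RNA-binding proteins of the Zfp36 group.

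Promoter sequences are shown first for members with and without a summit at their start, 5 of large clusters and Zfp966, a single gene, because CpG content and sequence shared with other promoters differed between members with and without a summit. Each line is the 250 bases before the annotated start, from RefSeq with GRCm38.p6 coordinates, 5′ to 3′ on the gene's strand, with every CG in capitals. Zfp94 (chr7:24316667-24316916, minus strand) has 21 CG and a summit at base 234 of the line. Zfp53 (chr17:21488738-21488987, plus strand) has 8 CG and a summit at base 200. Zfp981 (chr4:146514670-146514919, plus strand) has 3 CG and a summit at base 243. Zfp946 (chr17:22423952-22424201, plus strand) has 9 CG, Zfp985 (chr4:147553027-147553276, plus strand) has 5 and Zfp966 (chr2:175931101-175931350, minus strand) has 5, and their closest summits lay 109237, 210221 and 863009 bases from the start.
Zfp94: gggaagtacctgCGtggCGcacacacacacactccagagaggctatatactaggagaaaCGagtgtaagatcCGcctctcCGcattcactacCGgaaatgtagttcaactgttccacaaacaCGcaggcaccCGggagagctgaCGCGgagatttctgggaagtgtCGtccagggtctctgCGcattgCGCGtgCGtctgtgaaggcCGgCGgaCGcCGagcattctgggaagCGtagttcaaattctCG
Zfp53: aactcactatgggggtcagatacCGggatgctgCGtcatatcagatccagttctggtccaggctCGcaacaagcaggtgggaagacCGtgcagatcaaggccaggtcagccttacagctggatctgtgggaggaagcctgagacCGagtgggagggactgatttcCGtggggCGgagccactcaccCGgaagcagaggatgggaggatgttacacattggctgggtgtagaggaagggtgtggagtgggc
Zfp981: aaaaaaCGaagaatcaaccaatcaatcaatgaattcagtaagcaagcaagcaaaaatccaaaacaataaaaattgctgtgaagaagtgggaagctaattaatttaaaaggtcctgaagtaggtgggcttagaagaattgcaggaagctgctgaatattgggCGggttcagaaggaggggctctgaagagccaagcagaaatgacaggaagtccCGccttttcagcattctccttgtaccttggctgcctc
Zfp946: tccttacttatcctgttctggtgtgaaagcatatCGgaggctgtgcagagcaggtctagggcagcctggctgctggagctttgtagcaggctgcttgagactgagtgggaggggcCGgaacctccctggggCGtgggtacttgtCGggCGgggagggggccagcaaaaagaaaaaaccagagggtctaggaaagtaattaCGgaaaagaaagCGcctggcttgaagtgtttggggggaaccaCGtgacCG
Zfp985: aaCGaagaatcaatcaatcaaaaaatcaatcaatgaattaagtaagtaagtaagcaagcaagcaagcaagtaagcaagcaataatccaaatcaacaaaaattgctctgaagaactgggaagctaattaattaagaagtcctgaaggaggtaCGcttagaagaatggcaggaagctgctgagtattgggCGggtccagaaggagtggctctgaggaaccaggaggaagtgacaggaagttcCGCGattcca
Zfp966: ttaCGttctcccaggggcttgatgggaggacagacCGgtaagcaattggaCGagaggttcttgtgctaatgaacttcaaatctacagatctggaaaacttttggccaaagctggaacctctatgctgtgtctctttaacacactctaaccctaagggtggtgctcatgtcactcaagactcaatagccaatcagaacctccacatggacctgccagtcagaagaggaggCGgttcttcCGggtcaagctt
The line of Zfp966 also stands for Zfp967 (chr2:176520754-176521003, plus strand), whose 250 bases are the same at 250 of 250 positions.

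The next lines show a run of letters that recurs in promoters of some clusters of Zfp genes, GGGA, any 2 bases, then TGTAGT, in capitals. Zfp65 (chr13:67729174-67729423, minus strand) and Zfp429 (chr13:67399768-67400017, minus strand) belong to the same chromosome 13 cluster. Zfp65 had a summit 16 bases into the gene and Zfp429 had its closest at 21615 bases. Zfp790 (chr7:29815822-29816071, plus strand) had a summit 53 bases into the gene, and Zfp109 (chr7:24237599-24237848, minus strand) had its closest at 29394 bases. The letters lie 6, 59, 92 and 113 bases before the start in Zfp65, Zfp429, Zfp790 and Zfp109, so genes with and without a summit both carry them.
Zfp65: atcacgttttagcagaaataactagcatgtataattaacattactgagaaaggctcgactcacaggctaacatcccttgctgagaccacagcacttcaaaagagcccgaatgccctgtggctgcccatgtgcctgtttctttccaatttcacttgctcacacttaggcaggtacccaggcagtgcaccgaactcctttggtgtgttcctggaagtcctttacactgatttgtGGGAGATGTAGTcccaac
Zfp429: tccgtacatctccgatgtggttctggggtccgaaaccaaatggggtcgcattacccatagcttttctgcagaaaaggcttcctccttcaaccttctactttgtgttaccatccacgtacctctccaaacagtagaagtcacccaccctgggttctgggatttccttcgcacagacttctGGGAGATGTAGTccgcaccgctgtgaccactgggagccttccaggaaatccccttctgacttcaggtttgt
Zfp790: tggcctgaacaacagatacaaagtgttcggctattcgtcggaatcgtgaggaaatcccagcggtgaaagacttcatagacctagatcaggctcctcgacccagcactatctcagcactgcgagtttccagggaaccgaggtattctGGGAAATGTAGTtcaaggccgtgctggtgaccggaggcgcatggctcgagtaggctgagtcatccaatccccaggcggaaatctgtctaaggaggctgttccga
Zfp109: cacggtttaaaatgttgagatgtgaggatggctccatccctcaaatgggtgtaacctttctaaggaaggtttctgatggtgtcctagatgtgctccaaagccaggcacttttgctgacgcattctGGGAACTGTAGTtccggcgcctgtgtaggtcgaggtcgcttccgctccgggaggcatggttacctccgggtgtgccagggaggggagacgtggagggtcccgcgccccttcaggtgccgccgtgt

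Zfp genes had a summit nearby more often than protein-coding genes as a whole. Within 10 kb of either gene end, 331 of 396 members had a summit (83.6%, exact Clopper-Pearson 95% interval 79.6 to 87.1), and 66.5% of all protein-coding genes did. The intervals cover counting error only and treat genes as independent, which clustered genes are not. Of the 65 others, Zfp981, Zfp800 and Zfp936 (picked out with their values in view) had one 8, 98 and 30 bases from a start that lies inside the outer limits of the gene. The members nearest the limit were Zfp773 and Zfp366 inside it, at 9388 and 9770 bases, and Zfp992 and Zfp119a outside it, at 11252 and 12547 bases.

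A single summit was the commonest state. Among the 396 members 132 had 1 summit within 10 kb, 101 had 2, 42 had 3 and 24 had 4. A further 32 (8.08%) had 5 or more, beside 7.82% of all protein-coding genes. The median was 2 for Zfp genes and 1 for all genes, and the means were 1.88 and 1.67, so the members differed from other genes mainly in how few had none (16.4% against 33.5%). In all 659 different summits lay within 10 kb of a Zfp gene, 82 of them (12.4%) near 2 or more Zfp genes.

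Most members had a summit at their start. Strand, and with it the start, is known for 330 members and 17492 protein-coding genes, those with a RefSeq promoter sequence, and a gene may have several starts. Within 1 kb of a start 255 of 330 members had a summit (77.3%, interval 72.4 to 81.7), against 55.7% of all genes. Within 500 bases the shares were 75.2% and 53.0%. Of the 66 members with no known start, 46 (69.7%) had a summit within 1 kb of either end, against 51.6% of all such genes. The members nearest the 1 kb limit were Zfp984 and Zfp536 inside it (610 and 910 bases) and Zfp503, Zfp93 and Zfp235 outside it (1248, 1854 and 1942 bases), so few members depended on where the limit was set. Of the 75 members without a summit at a start, 12 had their closest at 1 to 10 kb from the start, 63 over 10 kb and 38 over 50 kb.

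Other zinc finger families had high shares too, and other tandem families had almost none. Among Zbtb genes, which encode zinc finger proteins with a BTB domain, 32 of 36 had a summit within 1 kb of a start (88.9%), and among Zscan and Zkscan genes, whose proteins carry a SCAN domain, 15 of 20 did (75%). The olfactory receptor genes (Olfr), also tandem copies, had 3 of 944 (0.318%), and the vomeronasal receptor genes (Vmn) had 2 of 323 (0.619%). The CpG content of promoters, given below as an observed over expected ratio, differed between these families too. Among promoters without the GGGA run shown above, the ratio was up to 0.5 in 928 of 943 Olfr, 322 of 322 Vmn and 99 of 275 Zfp genes. Of all genes with such a ratio 16.4% had a start summit. The part of CpG content in the family shares was not tested. The intervals of the Zfp, Zbtb and Zscan with Zkscan shares overlap, so no order among them can be read.

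Start summits lay close around the start, more often on the gene side than before it. Over the 255 members the median position was 41 bases into the gene (quartiles -56.5 and 164.5, negative values before the start), and over all 9743 genes with a start summit it was 18 bases. Within 250 bases of the start lay 214 of the 255 (83.9%), against 80.0% of all genes, and on the gene side lay 158 (62.0%), against 54.8%. Zfp819 had a summit on the start itself, Zfp11, Zfp641 and Zfp961 at 1 base, Zfp598, a ribosome quality control ubiquitin ligase gene, at 2 bases, and Zfp872 at 3 bases.

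**Figure D1:**
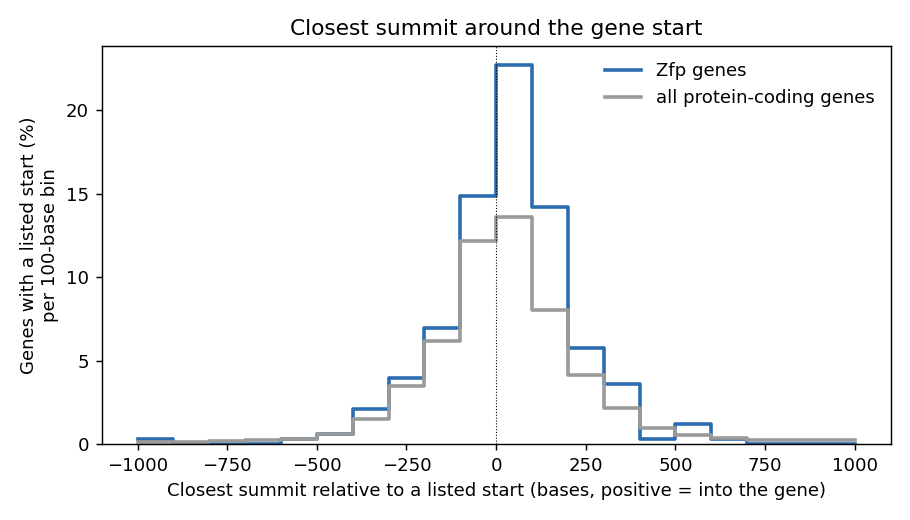
Share of genes with a known start (vertical axis, percent per 100-base bin) by the position of the closest summit relative to the start (horizontal axis, bases, positive into the gene), for the 330 Zfp genes and for all 17492 protein-coding genes. Both lines peak at the start, and the Zfp line is higher there, with a median position of 41 bases into the gene over the 255 members with a summit within 1 kb.

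Few members had all their start summits shared with the start of another gene. A start summit was called shared where it also lay within 1 kb of another protein-coding gene's start. Genes with some start summits shared and some not were counted as not shared. All start summits were shared in 15.5% of all genes with one, and in 10 of 255 members (3.92%). These were Zfp142 with Bcs1l, Zfp408 with Arhgap1, Zfp189 with Mrpl50, Zfp607b with Map3k10, Zfp319 with Usb1, Zfp830 with Cct6b, Zfp277 with Dock4, Zfp91 with Lpxn, and Zfp942 with Zfp943, which share 1 summit between them. Neighbours without a known start are not counted.

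The far end of the gene, where the exon coding for the finger array of KRAB zinc finger genes usually lies, rarely had a summit. Among the 330 members, all 2 kb or longer, 15 had one within 1 kb of the far end (4.55%, interval 2.57 to 7.39), against 5.88% of all genes of that length. All 15 also had a summit at the start, as did 666 of the 902 genes with a far-end summit over all genes. They include Zfp2, Zfp53, Zfp85 and Zfp423, whose far-end summits lay 221, 650, 420 and 663 bases from that end. A summit in the body, over 1 kb from both ends and from every start, was present in 63 members (19.1%) and in 25.8% of all genes. The start and the far end thus had different shares, 77.3% and 4.55%, over the same 330 genes. All genes of 2 kb or more had the same contrast, with 61.7% and 5.88%, and the Zfp interval at the far end includes 5.88%.

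The members fell into 204 places, with neighbours up to 200 kb apart joined. Of these 151 were single genes, 37 were clusters of 2 to 4 and 16 were clusters of 5 or more, which held 153 genes. In the 16 large clusters 137 of 153 members had a summit within 10 kb of an end. In 10 of the 16 every member had one, and in 8 every known start had a summit within 1 kb. Inside the spans of the 16 lay 254 summits, 138 of them (54.3%) within 1 kb of a member's start (of either end where the start is not known), 26 (10.2%) at the start of another protein-coding gene and 90 (35.4%) elsewhere. The number per Mb ranged from 9.29 to 123, with a median of 40.2.

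The biggest cluster runs from Zfp712 to Zfp273 on chromosome 13 (67038594 to 67827000). It held 23 Zfp genes and 26 summits, 21 of which lay at a member. A start summit was found at 17 of its 20 known starts, among them Zfp708, at 151 bases, and Zfp65, at 16 bases. Zfp595, Zfp456 and Zfp429 were the exceptions, with the closest summits 26109, 15283 and 21615 bases from the start.

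The cluster from Zfp84 to Zfp146 on chromosome 7 (29768552 to 30169775) had a summit at every known start, and was the largest of the 8 clusters that did. All 15 members had a summit within 10 kb, all 14 known starts had one within 1 kb, and 17 of its 19 summits lay at a member. Zfp30 had a summit 7 bases before its start. Zfp790, the member whose outer ends lay farthest from a summit, at 4688 bases, had one 53 bases from a start inside those ends.

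The cluster from Zfp677 to Zfp946 on chromosome 17 (21383707 to 22456689) was uneven. Of 18 members 13 had a summit within 10 kb, and 11 of 17 known starts had one within 1 kb. Zfp53 had its closest 51 bases before the start, and Zfp946, the last gene, had none within 109237 bases of its start. A second large cluster on chromosome 7, Zfp180 to Zfp575 (24081877 to 24587840), held 12 Zfp genes, 10 other protein-coding genes and 28 summits. A start summit was found at 6 of 10 known starts. Zfp94 had it at 17 bases, and Zfp109 had its closest at 29394 bases.

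On chromosome 17 the cluster from Zfp871 to Zfp101 (32765496 to 33394637) had a summit at 8 of 11 known starts, with Zfp472 at 69 bases and Zfp955a at 103417 bases. The cluster from Zfp992 to Zfp933 on chromosome 4 (146449030 to 147849126) had the lowest density of the 16 large clusters, 13 summits or 9.29 per Mb, and 3 of 9 known starts had one. Zfp981 had its summit 8 bases before the start there, and Zfp985 had none within 210221 bases. The densest of the 16 were Zfp628 to Zfp580 on chromosome 7, with 6 Zfp genes and 17 summits (123 per Mb), and Zfp553 to Zfp629 on the same chromosome, with 8 Zfp genes, 12 other protein-coding genes and 36 summits (94.1 per Mb). In the last, 12 of the 36 summits lay at other genes.

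**Figure D2:**
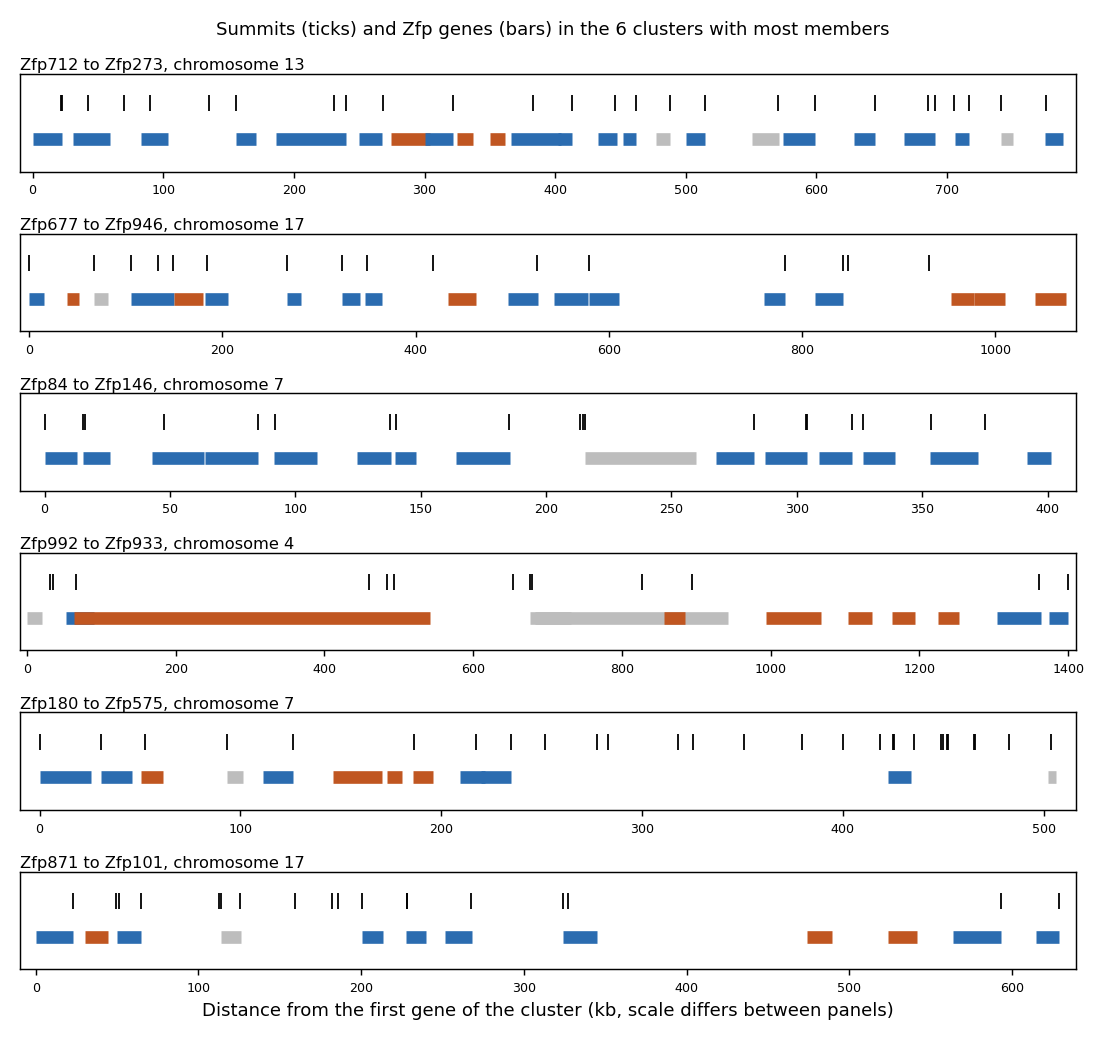
Summits (black ticks) and Zfp genes (bars) along the 6 clusters with most members, by distance from the first gene in kb, with a scale of its own in each panel. Blue bars have a summit within 1 kb of a known start, orange bars have none and grey bars have no known start; ticks stand over the blue bars of the Zfp84 to Zfp146 cluster from end to end, and the chromosome 4 cluster has 13 ticks over its whole span.

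**Figure D3:**
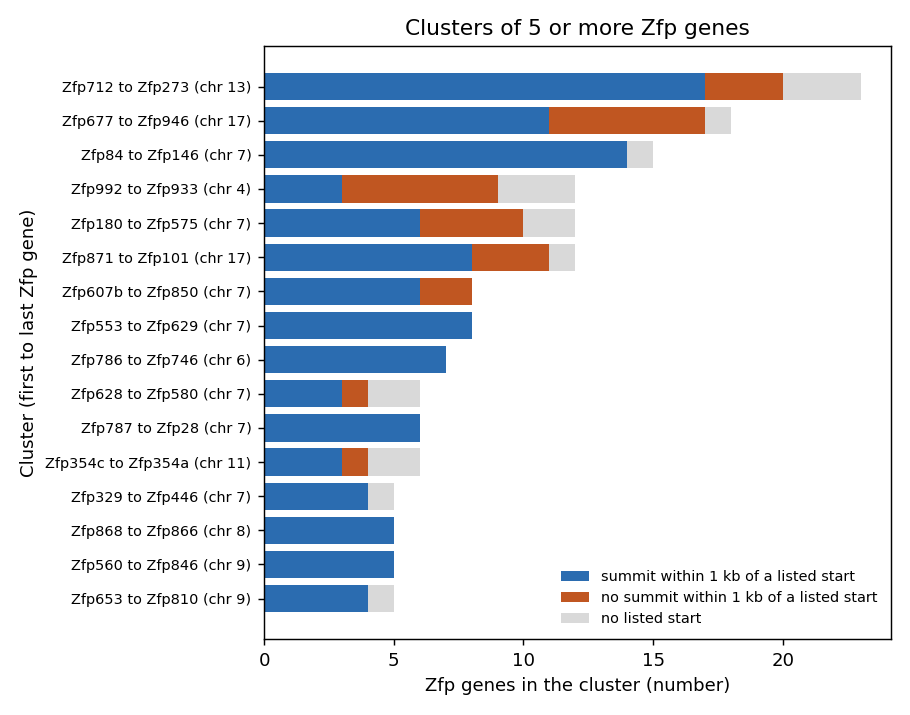
Number of Zfp genes (horizontal axis) in each of the 16 clusters of 5 or more, split into those with a summit within 1 kb of a known start (blue), those without (orange) and those with no known start (grey). In 8 clusters no bar has an orange part, and the chromosome 4 cluster from Zfp992 to Zfp933 has more orange than blue, with 3 of 9.

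Large clusters and single genes had nearly the same share at the start. A start summit was found at 110 of 136 starts in clusters of 5 or more (80.9%, interval 73.3 to 87.1) and at 96 of 119 single genes (80.7%, interval 72.4 to 87.3), a difference of 0.21 percentage points (interval -9.39 to 10.1). Clusters of 2 to 4 had 49 of 75 (65.3%, interval 53.5 to 76.0). They also held more copied promoters: 14 of their 75 promoter windows shared over 50% of their 36-base stretches with another promoter, against 7 of 136 and 3 of 119. With such windows left out the shares were 83.7% in large clusters, 78.7% in clusters of 2 to 4 and 82.8% in single genes. Summits in the gene body were found in 12.5%, 17.3% and 27.7% of genes in large clusters, small clusters and single genes, and the median lengths of the same genes were 18.1, 15.8 and 20.2 kb.

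Members without a summit within 10 kb of an outer end stood together in a few places. These runs of neighbouring members were picked out after their values were seen. On chromosome 2, between 174598682 and 178078425, the 10 successive Zfp genes from Zfp831 to Zfp931 had no summit within 10 kb. None of the 34 protein-coding genes in these 3.48 Mb had one, and only 3 summits lay in the whole stretch. Zfp966, Zfp967, Zfp965 and Zfp973, 4 of the 6 members farthest from any summit, stand there, with 850192, 540407, 401934 and 393138 bases from a gene end to the closest. Of the 9 promoter windows in the stretch, 8 shared over 50% of their 36-base stretches with another promoter.

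Chromosome 4 had a run of 6 members from Zfp990 to Zfp981 (145510759 to 146539395), where 0 of 7 protein-coding genes were linked at 10 kb although 6 summits lay in between, and its last member, Zfp981, has the start summit shown above, inside its outer ends. The same chromosome had a run of 4 from Zfp982 to Zfp534 (147443114 to 147702631), with 0 summits. Chromosome 17 had a run of 5 from Zfp944 to Zfp40 (22337983 to 23193284), with 2 summits in the stretch and 1 of its 10 protein-coding genes linked. Chromosomes 2 and 4 had the lowest autosomal shares among those with over 6 members, 14 of 27 (51.9%) and 15 of 27 (55.6%), against 66.9% and 70.6% of all their protein-coding genes. Chromosome 7 had 87 of 93 members with a summit (93.5%, against 60.0% of its genes), and chromosomes 8 and 9 had 24 of 24 and 20 of 20.

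On the X chromosome 2 of 9 members had a summit within 10 kb (22.2%, interval 2.81 to 60.0), and 29.2% of all X genes did. They were Zfp182, 89 bases from an end, and Zfp449, 42 bases from an end. Zfp804a on chromosome 2, a single gene with a CpG-rich promoter, had the closest summit farthest away of all members, 1350949 bases from its far end. Zfp616 on chromosome 11 followed among the genes outside the chromosome 2 run, at 497796 bases.

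Promoters with a summit held more CpG. The observed over expected ratio of CpG (the number of CG divided by the number that the C and G content of the window would give, in 300 bases from 250 before to 50 after the start) had a median of 0.684 in the 255 members with a start summit and 0.416 in the 75 without. Over all genes the medians were 0.788 and 0.205. Members with a ratio over 0.75 had a start summit in 95 of 103 cases (92.2%), and all genes in 92.6%. Between 0.5 and 0.75 the shares were 91 of 108 (84.3%) and 79.9%.

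The members differed from genes as a whole at the CpG-poor end. With a ratio of 0.25 to 0.5, 60 of 97 Zfp genes had a start summit (61.9%, interval 51.4 to 71.5), against 32.8% of all genes, and with up to 0.25 it was 9 of 22 (40.9%, interval 20.7 to 63.6), against 6.39%. Up to 0.5 the counts add to 69 of 119 (58.0%, interval 48.6 to 67.0), against 16.4% of all genes and 19.5% of all genes other than Olfr and Vmn genes. The other zinc finger families had few such windows. Zscan and Zkscan genes had a start summit at 3 of 8 without the GGGA run (interval 8.52 to 75.5) and at 2 of 2 with it. Zbtb genes, none of which held the run, had 1 of 4 (interval 0.63 to 80.6). A high share at this end can therefore not be called particular to Zfp genes. Among windows with no stretch in common with another promoter, the shares up to 0.5 were 52 of 75 (69.3%) and 20.5%. CpG-poor promoters of large clusters had 37 of 53 (69.8%, interval 55.7 to 81.7) and those of single Zfp genes 14 of 31 (45.2%, interval 27.3 to 64.0), 2 intervals that overlap.

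**Figure D4:**
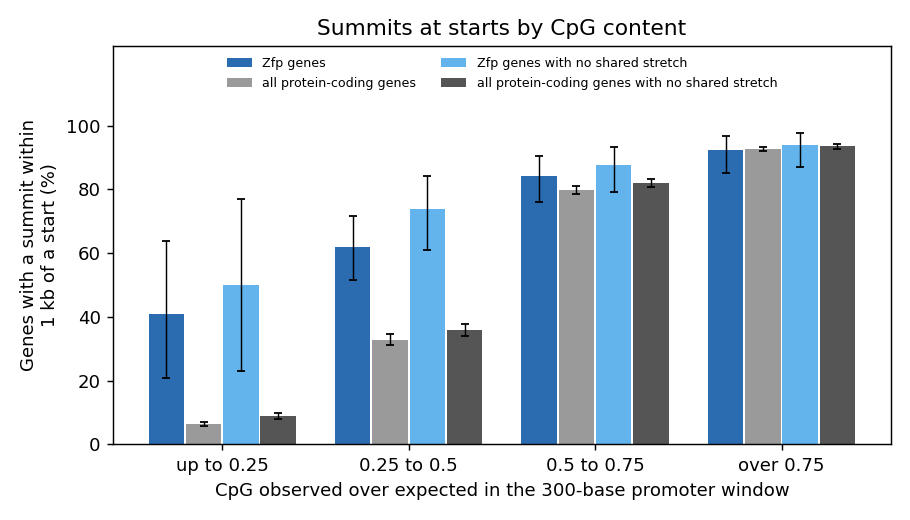
Share of genes with a summit within 1 kb of a start (vertical axis, percent, with exact 95% intervals as bars) in 4 classes of CpG observed over expected ratio in the promoter window (horizontal axis), for Zfp genes, all protein-coding genes, and the same with only windows that have no 36-base stretch in common with another promoter. Over 0.75 the Zfp and all-gene bars are level at 92.2% and 92.6%, and up to 0.25 they stand at 40.9% and 6.39%.

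Copied promoters had few summits. Of 268 Zfp windows with no 36-base stretch found in another promoter window, 227 had a start summit (84.7%), against 62.3% of all such genes. With up to 50% of stretches shared it was 25 of 38 (65.8%, against 12.6%), and with more than 50% shared it was 3 of 24 (12.5%, against 1.29%), namely Zfp345, Zfp942 and Zfp943. Zfp966 and Zfp967, whose printed sequences are the same, had none. Only promoter windows were searched for copies, not the whole genome. How the authors treated reads that match several places was stated in no source used here, and its part in these shares was not tested.

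GATA letters were about as frequent in members with a start summit as in those without. ZGLP1 has GATA-type zinc fingers, and GATA (either strand) was searched for in the same windows. It was present in 137 of 255 windows with a start summit (53.7%) and 41 of 75 without (54.7%), a difference of -0.94 percentage points (interval -13.3 to 11.8), and in 54.0% of all promoter windows. Over all genes the split was wider: 42.2% of windows with a start summit and 68.9% of those without held these letters. The longer AGATAA was present in 9.02% and 8.00% of Zfp windows with and without a start summit, and in 5.46% and 15.6% over all genes. Where a summit lay inside a window with 25 bases on each side, these 51 bases were searched too. They held GATA at 11 of 99 summits in Zfp windows (11.1%, interval 5.68 to 19.0), beside 12.4% of all 51-base stretches of Zfp windows. Over all genes the shares were 6.20% and 14.2%. The 12.4% and 14.2% cover windows with and without a summit. Base composition differed as well. The median GC content was 62% in all-gene windows with a start summit and 48% in those without. In Zfp windows it was 55.3% and 49%. The part of GC content in these shares was not tested. A match of letters is not a binding site, and its absence says only that these letters are not in the window.

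The 12 letters GGGA, any 2 bases and TGTAGT are the known core of the motif bound by ZFP143, itself a member. They were searched for after the printed promoters had been read, and they stood in 55 of 330 Zfp windows on either strand (16.7%, interval 12.8 to 21.1) and in 2.78% of all promoter windows. In clusters of 5 or more they stood in 45 of 136 (33.1%), in clusters of 2 to 4 in 5 of 75 (6.67%) and in single genes in 5 of 119 (4.20%). By cluster they were uneven. The Zfp712 to Zfp273 cluster had them in 18 of 20 windows, the Zfp84 to Zfp146 cluster in 10 of 14, the Zfp180 to Zfp575 cluster in 6 of 10 and the Zfp354c to Zfp354a cluster on chromosome 11 in 4 of 4. The chromosome 17 clusters, with 17 and 11 windows, had them in 0. So did the clusters Zfp786 to Zfp746, Zfp628 to Zfp580, Zfp553 to Zfp629, Zfp868 to Zfp866, Zfp560 to Zfp846 and Zfp653 to Zfp810. Zbtb genes had them in 0 of 36 windows, Olfr genes in 1 of 944 and Vmn genes in 1 of 323. Zscan and Zkscan genes had them in 2 of 20 (10.0%, interval 1.23 to 31.7), an interval that includes the Zfp share. The 6-letter core TGTAGT, which the longer run contains, stood in 25.2% of Zfp windows and 10.7% of all. This core was as common in some other families, with 30.0% of Zscan and Zkscan windows and 28.2% of Vmn windows. Olfr genes had it in 17.1% and Zbtb genes in 0 of 36.

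**Figure D5:**
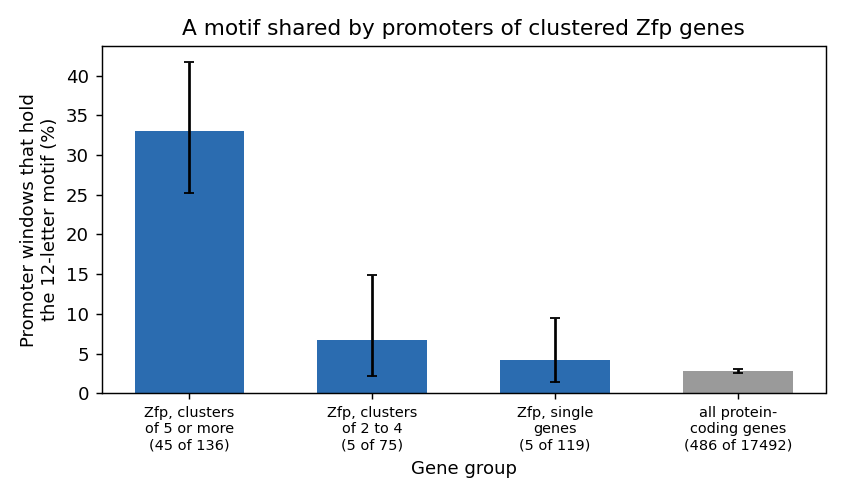
Share of promoter windows that hold the 12-letter run (vertical axis, percent, bars with exact 95% intervals) in Zfp genes of large clusters, small clusters and single Zfp genes, and in all protein-coding genes (horizontal axis). The share is 33.1% in large clusters, and 6.67%, 4.20% and 2.78% in the others.

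A start summit was found at 48 of 55 Zfp genes with these letters (87.3%, interval 75.5 to 94.7) and 207 of 275 without (75.3%, interval 69.7 to 80.3), 2 intervals that overlap. Over all genes the shares were 93.4% and 54.6%. In CpG-poor windows (ratio up to 0.5) the Zfp counts were 18 of 20 with the letters (90.0%, interval 68.3 to 98.8) and 51 of 99 without (51.5%, interval 41.3 to 61.7), and over all genes 78.6% and 15.9%. The letters stood mostly in large clusters, though not in all of them. Within large clusters the CpG-poor counts were 16 of 18 with the letters (interval 65.3 to 98.6) and 21 of 35 without (interval 42.1 to 76.1). Over all their windows the shares were 84.4% and 79.1%, and the intervals overlap in both cases. The chromosome 17 and Zfp868 to Zfp866 clusters show start summits without them: in the last, on chromosome 8, all 5 starts had a summit, 0 of 5 windows held the letters and the median CpG ratio was 0.412.

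In the 48 Zfp genes with the letters and a start summit, the summit closest to the middle of the letters lay a median of 148 bases from it (quartiles 71.8 and 223), and 7 of the 48 lay within 50 bases. The summit closest to the most 5′ start lay a median of 110 bases from it (quartiles 64.8 and 174). Since these genes were taken for a summit near a start, the 2 distances are a description and are not compared.

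The counts of summits were highest at a few members, some of them neighbours. Zfp865 had 9 within 10 kb of an end. Zfp553, Zfp580 and Zfp647 had 8 each, Zfp692, Zfp672, Zfp13 and Zfp503 had 7 each, and 8 members, among them Zfp839 and Zfp512b, had 6. The order depends on the distance: within 5 kb Zfp503 had 6, Zfp865, Zfp553 and Zfp647 had 5, Zfp692 and Zfp13 had 4, Zfp672 had 3 and Zfp580 had 1. Within 20 kb Zfp553 had 12, Zfp13 had 11 and Zfp865 had 10. At Zfp865 (chromosome 7, 5020376 to 5033226) 4 summits lay inside the gene, at 5020460, 5029546, 5030744 and 5031748, and 5 outside. Zfp865 and Zfp580, of the same cluster, have the summits at 5029546, 5030744, 5031748 and 5038414 in common. Zfp692 and Zfp672 are neighbours on chromosome 11 with summits in common.

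Members known as repressors of retroelements or keepers of imprints all had a summit within 10 kb. Zfp57 and Zfp445, which protect the methylation of imprinting control regions, had start summits at 240 and 81 bases. Zfp708, which acts on retroelements, had one at 151 bases, Zfp809, which silences murine leukaemia proviruses, at 218 bases, and Zfp932, a repressor of endogenous retroviruses, at 88 bases. Zfp568, which represses a placental Igf2 transcript, has no known start here and had a summit 12 bases from an end. That is 6 of 6 within 10 kb and 5 of 5 at a start, beside 66.5% and 55.7% of all genes and 83.6% and 77.3% of Zfp genes.

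The members with roles in pluripotency or as general activators gave 6 of 6 within 10 kb and 5 of 5 at a start, beside 66.5% and 55.7% of all genes and 83.6% and 77.3% of Zfp genes. Zfp143, an activator that binds many promoters, had its start summit at 366 bases, Zfp207 at 344, Zfp281, a repressor in stem cells, at 241, Zfp296 at 166 and Zfp322a at 42 bases. Zfp706, which restrains self-renewal of stem cells, had one 212 bases from an end. Of the RNA-binding CCCH genes, whose proteins speed up the decay of AU-rich mRNAs, Zfp36 and Zfp36l1 had start summits at 152 and 79 bases with 6 and 5 summits within 10 kb, and Zfp36l2 had one 249 bases from an end. Zfp36l3 on the X chromosome had none within 55541 bases.

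Zfp541, which acts in meiotic male germ cells, had no summit at its start: the closest lay 18936 bases away from it. Of its 2 summits within 10 kb of an outer end, 1 lay 8866 bases outside the end on the start side and 1 lay 2294 bases outside the other end. Its promoter window has a CpG ratio of 0.27. All 7 developmental regulators had a summit within 10 kb of an end, and 2 of 3 known starts had one within 1 kb, beside 66.5% and 55.7% of all genes and 83.6% and 77.3% of Zfp genes. Zfp423, a regulator of neural and fat cell development, had 6 summits within 10 kb, the start summit at 240 bases. Zfp503, expressed in the striatum, had 7, the closest 1248 bases into the gene, and Zfp335, needed in neural progenitors, had 4, the closest 141 bases before the start. Zfp462, Zfp516, Zfp703 and Zfp750 had their closest at 868, 3684, 342 and 287 bases from an end.

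The genes for the proteins that KRAB zinc finger proteins work with also had start summits. Of 20 listed, 20 had a summit within 10 kb of an end. Of 18 known starts 17 had one within 1 kb (94.4%, interval 72.7 to 99.9), beside 55.7% of all genes. Among all genes with a CpG ratio over 0.75 the share was 92.6%, and the ratio of the listed genes was not measured. Trim28, the corepressor, had its closest at 118 bases from the start, Setdb1, the histone H3 lysine 9 methyltransferase, at 110 bases, and the heterochromatin protein genes Cbx1, Cbx3 and Cbx5 at 174, 103 and 54 bases. Dnmt1 and Uhrf1, which maintain DNA methylation, had them at 28 and 53 bases, and Mphosph8, Tasor and Pphln1, which form a silencing complex, at 22, 26 and 25 bases. Daxx, a histone chaperone gene, had one at 56 bases and 9 within 10 kb. Atrx, its partner on the X chromosome, was the exception, with the closest at 3299 bases.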

How the data were processed

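V5-ZGLP1 chromatin immunoprecipitation gave 5 ChIP and 3 input libraries. The authors deposited 1 list of summit positions in bases on mm10. Per the submitters' processing notes, the tools included MACS2 2.1.1.20160309, Bowtie 1.1.2, HOMER 4.9.1, Trim Galore 0.4.1 with cutadapt 1.9.1, and SAMtools 1.3, Picard 2.1.0 and bedtools. Their settings, the libraries behind the list and the handling of reads with several matches are not given in the sources used here. Both coordinates are equal for all 32927 summits, so a distance may be off by 1 base depending on whether positions count from 0 or 1.

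Genes, ends and promoter windows came from RefSeq tables of GRCm38.p6. A start is the closest listed start; promoter features use the most 5′ window. Chromosome 18 members had no listed start. Shared stretches are runs of 36 bases found in another window. No genome or protein table was used, so finger number and KRAB boxes were not analysed here. Shares carry exact 95% binomial intervals; no test was run over genes, and no comparison of conditions was made.

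Named genes were the 10 with most summits, the closest and farthest in the 6 biggest clusters, the 6 closest and 6 farthest, and lists by role. Any other member is named because of its values. The members, lists and rules were chosen with earlier results of these data known. The code was run on simulated summits placed well within 1 kb of a start, and 200 of 200 were found. On the real summits, distances and counts of 300 of 300 genes matched a direct count. Scripts ran in Python 3.11.15 with SciPy 1.17.1, pandas 2.3.3, matplotlib 3.10.9 and numpy 2.4.6.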

Additional observations from a re-analysis of the deposited data

How the results depend on the processing

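Of 24 alternative values for the main results, 18 stayed within the interval of the reported value and 6 moved beyond it. The number of clusters and the difference of CpG medians have no interval. For the number of clusters the limit was 1.5 times. For the CpG medians it was the standard deviation of the ratio in members without a start summit. The share of members with a summit near an end was 79.0% (all genes 58.8%) with each summit given to its nearest gene. The share at a start was 69.4% (52.9%) with either gene end in place of the start. Added after seeing the data, it was 69.1% (51.5%) with the outermost gene end on the start side and 82.4% (59.0%) without windows shared over 50%. The share at the far end was 1.52% (2.95%) within 500 bases, and the core TGTAGT, also added, stood in 25.2% of windows (10.7%). The differences of large clusters from single genes (0.21 percentage points) and of GATA with from without a start summit (-0.94) are near 0, and 4 of their 6 alternatives had the other sign. The first was -7.00 with gaps up to 500 kb, 3.93 with 100 kb, -0.21 within 500 bases and 0.84 within 2 kb. The second was 0.37 within 500 bases and 1.02 for AGATAA. All 6 intervals include 0. Of 114 summit counts of named genes under alternatives, 23 moved. Finger number and KRAB box were not run, for want of a protein table. No paired analysis was possible because the single list carries no library names or replicates. Depth and peak height are unknown, so a missing summit has no limit of detection.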
